A study of Mus musculus with 9 samples.

Results

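The interleukin 1 (IL-1) and interleukin 18 (IL-18) system and the inflammasome were followed through 10 genes in 9 RNA-seq libraries of mouse liver. They were the ligands Il1a, Il1b and Il18, the soluble inhibitors Il1rn and Il18bp, the decoy receptor Il1r2, the signalling receptor Il1r1 with its accessory chain Il1rap, and the inflammasome genes Nlrp3 and Casp1. The genes were picked by name from the 54532 genes of the table, with earlier results of these data known, so the fits below describe where each gene stands and are no independent evidence. Each of the 10 was found once, and 6 reached the mean of 1 FPKM over the 9 libraries that was asked for in the main fit, as did 9699 genes in all. FPKM is the number of fragments on a gene scaled by its length and by a depth total of the library.

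All mice were male C57BL/6 of 5 to 7 weeks. The NC group held normal controls, the APAP group was given, after an overnight fast, a single intraperitoneal dose of 500 mg/kg acetaminophen (APAP), and the AMSC group was given the same dose followed at once by mesenchymal stem cells from mouse inguinal fat (AMSCs) through the tail vein. Livers of the APAP-treated groups were taken after 6 h. There were 3 libraries in each group, no group that received AMSCs without APAP, and AMSC replicates numbered 2, 3 and 4. NC replicate 3 carries another date in its title than the other 8 libraries.

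IL-1 alpha and IL-1 beta bind the receptor encoded by Il1r1, which then recruits the chain encoded by Il1rap and signals through MyD88 to NF-kB and the MAP kinases. IL-1 beta and IL-18 are made as precursors that caspase-1 cleaves once an inflammasome, for instance the one built on NLRP3, has been assembled, whereas IL-1 alpha is active as a precursor and is released by dying cells. In the liver the ligands come largely from Kupffer cells and recruited myeloid cells, and the injury of APAP overdose is a classical setting of sterile inflammation. The transcripts measured here show neither the cleavage nor the release of the proteins.

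Reads on genes numbered 13418921 to 16210930 per library. The depth total that scaled FPKM was another number, and 1 read was worth 0.0578 to 0.0807 FPKM for a gene 1 kilobase long. This total was 1.08 to 1.16 times the reads on genes in NC, 0.909 to 0.949 times in APAP and 0.969 to 0.985 times in AMSC. The scaling thus differed between groups and enters every comparison, including AMSC against APAP, where the ranges lay closer together. Hepatocyte markers such as Alb were abundant in every library (42754 to 66351 FPKM summed over 9 markers). Lymphocyte markers summed to at most 2.32 FPKM over 9 genes, and 0 of them were abundant enough to be tested. A difference was called a differentially expressed gene (DEG) at an adjusted p of at most 0.05 in limma, over all genes tested, together with a log2 fold change of 1 or more up or down. The log2 fold changes are on the scale of log2(FPKM + 1), which makes the change of weakly expressed genes look smaller. In bulk liver, fewer cells of a type and less RNA per cell cannot be told apart.

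Il1a and Il1b lie side by side on the minus strand of chromosome 2 (GRCm38, chr2:129299610-129309972 and chr2:129364570-129371139), 54597 bases apart. Il1r2 and Il1r1 are neighbours on the plus strand of chromosome 1 (chr1:40074079-40125231 and chr1:40225080-40317257), 99848 bases apart. The 4 genes of these neighbouring pairs carried the calls of the main fit and the low decoy receptor, and their promoters are shown here, each as the 250 bases before a RefSeq transcription start (GRCm38.p6), 5′ to 3′ on the strand of the gene. The motifs searched on both strands were AP-1 (TGANTCA), C/EBP (TTNCNNAA), STAT (TTCNNNGAA), the glucocorticoid receptor half-site (AGAACA), PU.1 (GAGGAAGT), the TATA box (TATAAA) and NF-kB, and capitals mark each match.
Il1a (chr2:129309973-129310222, minus strand): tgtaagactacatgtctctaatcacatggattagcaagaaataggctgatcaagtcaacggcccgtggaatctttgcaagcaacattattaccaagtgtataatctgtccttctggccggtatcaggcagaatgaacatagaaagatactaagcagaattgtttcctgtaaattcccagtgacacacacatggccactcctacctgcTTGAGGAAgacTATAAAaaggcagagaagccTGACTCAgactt
Il1b (chr2:129371140-129371389, minus strand): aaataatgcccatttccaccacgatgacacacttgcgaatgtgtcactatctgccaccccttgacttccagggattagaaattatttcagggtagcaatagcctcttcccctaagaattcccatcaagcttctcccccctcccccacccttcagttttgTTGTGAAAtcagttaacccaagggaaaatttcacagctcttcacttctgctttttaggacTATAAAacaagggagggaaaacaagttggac
Il1r2 (chr1:40085843-40086092, plus strand): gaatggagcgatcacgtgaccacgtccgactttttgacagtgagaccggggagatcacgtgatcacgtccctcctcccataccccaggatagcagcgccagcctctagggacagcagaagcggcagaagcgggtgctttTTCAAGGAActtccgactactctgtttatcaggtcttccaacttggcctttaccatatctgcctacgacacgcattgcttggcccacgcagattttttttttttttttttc
Il1r1, upstream promoter (chr1:40224830-40225079, plus strand): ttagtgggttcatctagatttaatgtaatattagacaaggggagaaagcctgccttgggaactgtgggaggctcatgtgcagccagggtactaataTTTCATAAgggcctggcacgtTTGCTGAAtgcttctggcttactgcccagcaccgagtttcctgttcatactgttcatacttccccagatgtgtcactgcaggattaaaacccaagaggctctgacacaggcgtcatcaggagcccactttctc
Il1r1, downstream promoter (chr1:40266336-40266585, plus strand): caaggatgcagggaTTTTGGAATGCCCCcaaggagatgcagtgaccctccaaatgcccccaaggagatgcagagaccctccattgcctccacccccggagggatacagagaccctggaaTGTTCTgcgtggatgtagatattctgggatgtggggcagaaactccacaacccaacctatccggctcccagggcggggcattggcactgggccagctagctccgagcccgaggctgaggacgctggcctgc

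The promoters of the ligand neighbours held the same kinds of match in part. Both had a TATA box, with its first base at -32 in Il1a and -31 in Il1b, and a C/EBP match, at -43 in Il1a and -91 in Il1b. Il1a also had an AP-1 match at -12. The receptor promoters shared none of the TATA or AP-1 matches. The Il1r2 promoter held a STAT match at -111, the upstream promoter of Il1r1 held C/EBP matches at -154 and -133, and its downstream promoter held a glucocorticoid half-site at -131 and a C/EBP match at -236 that overlaps an NF-kB match at -232. Among all 32851 RefSeq promoters of the same length, 36.8% held a C/EBP match, 16.1% a glucocorticoid half-site, 12.4% a TATA box, 7.25% an NF-kB match, 7.02% a STAT match, 6.75% an AP-1 match and 2.44% a PU.1 match. All 10 genes had an entry, with 14 promoters. A match is a description of the letters only.

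**Figure D1:**
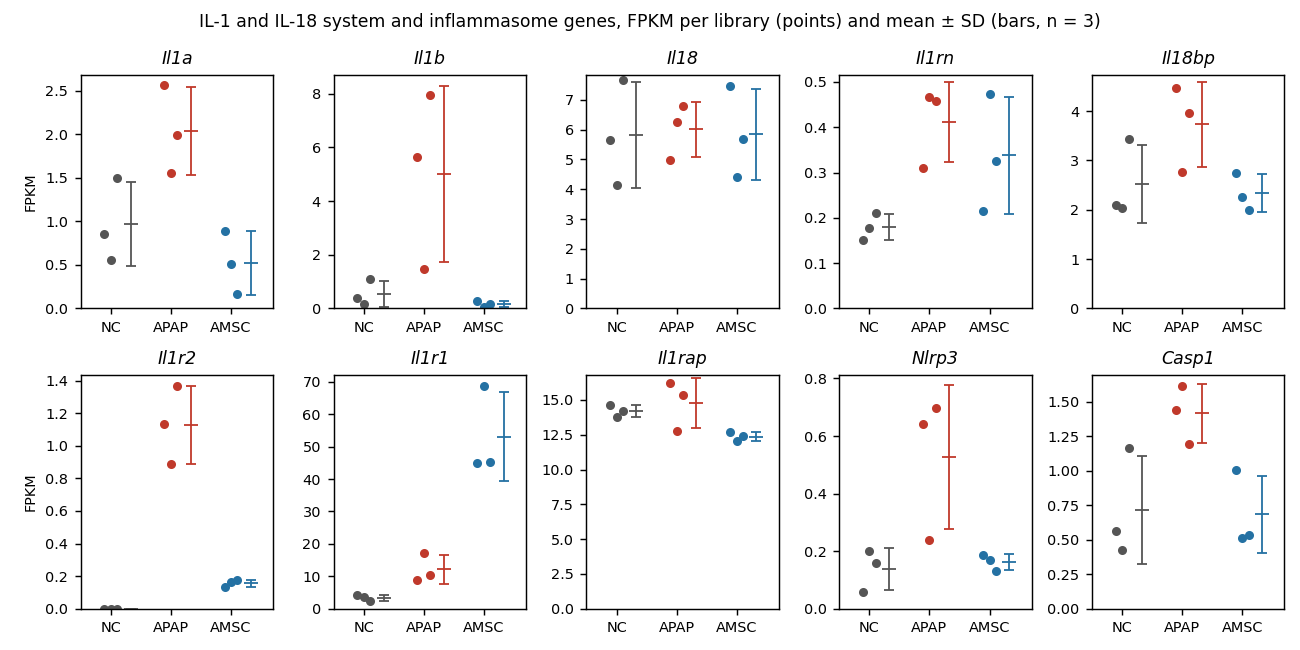
FPKM of the 10 genes in each library (points) with the mean ± SD of each group (bars, n = 3), a panel per gene with its own axis from 0. Il1r1 steps up from NC (2.47 to 4.12) to APAP (8.82 to 17.2) and AMSC (45.1 to 68.8), whereas Il1a, Il1b, Il1r2 and Nlrp3 are highest in the APAP group.

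The 3 ligand genes behaved differently. Il1b rose after APAP and was lower again with AMSCs, Il1a was lower with AMSCs than with APAP alone, and Il18 gave no call in any comparison. Il1b encodes IL-1 beta, the form secreted after inflammasome activation. Its FPKM was 0.377, 0.182 and 1.10 in NC replicates 1 to 3, 5.63, 1.48 and 7.96 in APAP replicates 1 to 3, and 0.264, 0.0403 and 0.174 in AMSC replicates 2 to 4. Every APAP library was above all libraries of both other groups, but APAP replicate 2 was close to NC replicate 3. In reads, the APAP libraries held 35 to 204 and the AMSC libraries 1 to 8, so the AMSC values rest on few reads.

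Mean Il1b was 0.552 ± 0.482 FPKM in NC, 5.02 ± 3.28 in APAP and 0.160 ± 0.113 in AMSC (SD, n = 3). The means of APAP and NC differed 9.10-fold (log2 fold change 1.81, SE 0.45, adjusted p = 0.0236), a DEG. From APAP to AMSC the mean was 31.5-fold lower (log2 fold change -2.19, SE 0.42, adjusted p = 0.0367), again a DEG. AMSC and NC overlapped (log2 fold change -0.38, 95% confidence interval -0.87 to 0.11, adjusted p = 0.223).

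The calls of Il1b depended on single libraries. In APAP against NC its adjusted p was 0.0549 without APAP replicate 1, 0.0617 without APAP replicate 3, 0.0701 without NC replicate 1 and 0.0837 without NC replicate 2, and the call held without APAP replicate 2 (0.00348) and without NC replicate 3 (0.0342), which leaves only libraries of the same date. In AMSC against APAP the call held without APAP replicate 2 (adjusted p = 0.00242) and was lost when any other library was left out (0.0703 without APAP replicate 1, 0.0861 without APAP replicate 3, 0.0885, 0.128 and 0.117 without AMSC replicates 2, 3 and 4). Voom on the reads gave an adjusted p of 0.0583 there. With all genes above 0 in the limma fit, neither call of Il1b held. The adjusted p was then 0.132 in APAP against NC and 0.193 in AMSC against APAP. Of the group means only that of APAP was above 1 FPKM, so Il1b entered the main fit through that group.

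Il1a encodes IL-1 alpha, an alarmin that needs no caspase-1. Its FPKM was 0.850, 0.557 and 1.501 in the NC libraries, 2.57, 1.55 and 1.998 in the APAP libraries, and 0.893, 0.507 and 0.169 in the AMSC libraries. Again all APAP libraries were the highest, though APAP replicate 2 stood only just above NC replicate 3. The mean was 0.969 ± 0.483 in NC, 2.04 ± 0.509 in APAP and 0.523 ± 0.363 in AMSC (SD, n = 3). The difference from NC to APAP did not pass (log2 fold change 0.64, SE 0.21, adjusted p = 0.0562). That from APAP to AMSC did, with a 3.90-fold lower mean (log2 fold change -1.01, SE 0.21, adjusted p = 0.0421). The log2 fold change was at the edge of the threshold, and the call was lost when any library other than APAP replicate 2 was left out (adjusted p = 0.0773 and 0.113 without APAP replicates 1 and 3, and 0.0530, 0.133 and 0.123 without AMSC replicates 2, 3 and 4) and with a pseudocount of 0.1 (adjusted p = 0.0707). Without APAP replicate 2 the adjusted p was 0.0482. With all genes above 0 in the fit it was 0.187, and the call was lost. Of the group means only that of APAP was above 1 FPKM, so Il1a too entered the main fit through that group. AMSC and NC overlapped (log2 fold change -0.37, adjusted p = 0.262).

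Il18 encodes IL-18, which drives interferon gamma in lymphocytes and is made constitutively in liver. Its FPKM was 5.64, 4.15 and 7.66 in the NC libraries, 4.99, 6.26 and 6.78 in the APAP libraries and 7.45, 4.40 and 5.68 in the AMSC libraries. The 3 groups overlapped throughout, with means of 5.82 ± 1.76, 6.01 ± 0.923 and 5.84 ± 1.53 (SD, n = 3). The log2 fold change was 0.06 in APAP against NC (95% confidence interval -0.41 to 0.53, adjusted p = 0.838), -0.05 in AMSC against APAP (-0.49 to 0.39, adjusted p = 0.913) and 0.01 in AMSC against NC (-0.50 to 0.52, adjusted p = 0.970). Its sign changed with the library left out in each comparison.

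Of the inhibitors, neither was a DEG in limma, and voom called Il1rn in APAP against NC. Il1rn encodes the IL-1 receptor antagonist, which occupies the receptor without signalling. It was low, at 0.152, 0.178 and 0.210 FPKM in NC, 0.310, 0.466 and 0.457 in APAP and 0.216, 0.473 and 0.325 in AMSC, from 14 to 34 reads per library. All libraries of both APAP-treated groups were above those of NC. AMSC replicate 2 (0.216, from 19 reads) was only just above NC replicate 3 (0.210, from 20 reads). As it stayed under 1 FPKM, its fit is taken from all 24849 genes above 0, where the log2 fold change was 0.26 in APAP against NC (SE 0.06, adjusted p = 0.0643), -0.08 in AMSC against APAP (SE 0.09, adjusted p = 0.691) and 0.18 in AMSC against NC (SE 0.08, adjusted p = 0.282). In voom on the reads its log2 fold change in APAP against NC was 1.16 (adjusted p = 0.0433).

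Il18bp encodes the soluble binding protein that neutralises IL-18. Its FPKM was 2.10, 2.04 and 3.44 in NC, 4.46, 2.77 and 3.96 in APAP and 2.75, 2.26 and 2.001 in AMSC. The AMSC libraries lay just below the APAP libraries, while NC and APAP overlapped. The log2 fold change was 0.43 in APAP against NC (SE 0.20, adjusted p = 0.155), -0.49 in AMSC against APAP (SE 0.17, adjusted p = 0.155) and -0.06 in AMSC against NC (SE 0.17, adjusted p = 0.816).

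Among the receptor genes, Il1r1 rose from NC to APAP and again from APAP to AMSC, Il1r2 was at 0 in NC and detected in both APAP-treated groups, and Il1rap gave no call. Il1r1 encodes the signalling receptor, which hepatocytes, endothelial cells and stromal cells are known to carry. Its FPKM was 4.12, 3.52 and 2.47 in NC, 8.82, 17.2 and 10.4 in APAP and 45.1, 68.8 and 45.1 in AMSC. The 3 groups did not overlap, and the lowest AMSC library held 4315 reads against 1358 in the highest APAP library. The mean rose from 3.37 ± 0.836 in NC to 12.1 ± 4.47 in APAP and 53.0 ± 13.7 in AMSC (SD, n = 3). APAP was 3.61-fold above NC (log2 fold change 1.56, SE 0.25, adjusted p = 0.00432), AMSC 4.37-fold above APAP (log2 fold change 2.06, SE 0.26, adjusted p = 0.00956) and AMSC 15.7-fold above NC (log2 fold change 3.62, SE 0.20, adjusted p = 2.12e-05).

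Il1r1 was a DEG in all 3 comparisons, and remained one whichever library was left out, with adjusted p of at most 0.0193 in APAP against NC, 0.0435 in AMSC against APAP and 0.000235 in AMSC against NC. With all genes above 0 in the fit, its adjusted p in AMSC against APAP was 0.105. Among the libraries of the same date the log2 fold change was 1.40 in APAP against NC (adjusted p = 0.0162) and 3.46 in AMSC against NC (adjusted p = 0.000119). Markers of mesenchymal stromal cells, the kind of cell injected, summed over 10 genes to 17.5 to 31.8 FPKM in NC, 23.5 to 41.3 in APAP and 19.4 to 23.9 in AMSC. Eng, also an endothelial gene, was the largest single contributor by group means (13.5, 15.7 and 9.09). Pdgfrb went the other way, with 0.799 to 1.47 FPKM in NC, 0.943 to 1.33 in APAP and 1.66 to 2.01 in AMSC, and the mean of Nt5e was 0.656, 0.571 and 0.887. The part of injected cells in the level of Il1r1 was not tested. Of the 6 tested, Ly6a was a DEG in APAP against NC and none was in AMSC against APAP by limma or voom, where 1 was higher and 3 lower at an unadjusted p under 0.05 in limma. Hepatocyte markers summed to 42754 to 45742 FPKM in NC, 58357 to 66351 in APAP and 54326 to 56484 in AMSC, and Alb made up most of each sum. The hepatocyte markers did not move alike. The means of Tat, Hnf4a and Apoa1 rose in the order of Il1r1, from NC to APAP to AMSC. Those of Alb, Ttr, Serpina1a and Apob were highest in APAP. Cps1 had means of 850, 777 and 765, and Cyp2e1 was lowest in APAP (3408, 847 and 3619). Tat, an enzyme of tyrosine breakdown, had means of 662 FPKM in NC, 1058 in APAP and 1882 in AMSC, and Hnf4a, a transcription factor of hepatocyte identity, had 117, 164 and 239. The AMSC libraries were above all APAP libraries for both (1585 to 2180 against 858 to 1280 for Tat, 211 to 276 against 136 to 179 for Hnf4a). The part of hepatocytes in the level of Il1r1 was not tested.

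Il1r2 encodes the decoy receptor, which binds IL-1 without signalling and is known from neutrophils and other myeloid cells. It was at 0 reads in all 3 NC libraries, at 1.13, 0.888 and 1.36 FPKM in APAP (29, 21 and 35 reads) and at 0.132, 0.161 and 0.174 in AMSC (4, 4 and 5 reads). The 3 groups were separate. Against a floor of 3 reads over the NC group (0.0307 FPKM), the APAP mean of 1.13 ± 0.238 was at least 36.7-fold higher and the AMSC mean of 0.156 ± 0.0217 at least 5.07-fold higher (SD, n = 3). In the fit of all genes above 0 the log2 fold change was 1.08 in APAP against NC (SE 0.09, adjusted p = 0.0105), a DEG, but the adjusted p was 0.0716 with the replicate number as a block. It was also 0.0581 without NC replicate 1 and 0.0590 without NC replicate 2.

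In AMSC against APAP the log2 fold change of Il1r2 was -0.88 (SE 0.10, adjusted p = 0.0831), and voom on the reads called it (log2 fold change -2.72, adjusted p = 0.0343). In AMSC against NC the log2 fold change was 0.21 (SE 0.02, adjusted p = 0.00650), short of the minimum size on the scale with a pseudocount of 1. It was called with a pseudocount of 0.1 (log2 fold change 1.35, adjusted p = 0.00379) and by voom on the reads (3.49, adjusted p = 0.00280). The sum of the neutrophil markers moved with Il1r2. The summed level of 11 markers was 0.461 to 2.09 FPKM in NC, 7.89 to 36.0 in APAP and 4.86 to 6.27 in AMSC. S100a8, S100a9 and Retnlg, the 3 that were tested, were DEGs with higher values in APAP than in NC, beside 5.09% of all genes tested. Their NC means were 0.308, 0.223 and 0.131 FPKM, so they were tested only through their higher values in the APAP-treated groups. In AMSC against APAP 0 of the 3 were DEGs by limma or voom, and all 3 were lower at an unadjusted p under 0.05 in limma. S100a9 and Retnlg were still DEGs with higher values in AMSC than in NC, beside 3.92% of all genes tested. Ngp went another way, at 0 in NC and APAP and up to 0.272 FPKM in AMSC. Camp was at 0 in every library, and Ly6g, the defining marker, reached at most 0.0857 FPKM. The part of these cells in the level of Il1r2 was not tested.

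Il1rap, the accessory chain shared by receptors of the family, was the highest of the 10 genes in NC and varied least. Its FPKM was 14.6, 13.8 and 14.2 in NC, 16.2, 12.8 and 15.4 in APAP and 12.7, 12.03 and 12.4 in AMSC. The AMSC libraries lay below all others, by little. The log2 fold change was 0.05 in APAP against NC (95% confidence interval -0.24 to 0.34, adjusted p = 0.805), -0.23 in AMSC against APAP (-0.53 to 0.06, adjusted p = 0.350) and -0.19 in AMSC against NC (-0.40 to 0.03, adjusted p = 0.181). Il1r1 and Il1rap, which form the signalling complex together, thus stood at 3.37 against 14.2 FPKM in NC, at 12.1 against 14.8 in APAP and at 53.0 against 12.4 in AMSC.

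The inflammasome genes were weakly expressed. Nlrp3 encodes the sensor, and had 0.0591, 0.200 and 0.158 FPKM in NC, 0.643, 0.239 and 0.697 in APAP and 0.186, 0.171 and 0.131 in AMSC, from 4 to 38 reads. Every APAP library was the highest, with APAP replicate 2 close to the other groups. Casp1 encodes the protease that cleaves pro-IL-1 beta and pro-IL-18. Its FPKM was 0.560, 0.425 and 1.16 in NC, 1.44, 1.62 and 1.19 in APAP and 1.01, 0.514 and 0.533 in AMSC, from 10 to 30 reads, and the lowest APAP library was only just above the highest NC library.

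Neither gene passed in the fit of all genes above 0. In APAP against NC the log2 fold change was 0.41 for Nlrp3 (SE 0.14, adjusted p = 0.168) and 0.51 for Casp1 (SE 0.19, adjusted p = 0.194). In AMSC against APAP it was -0.38 for Nlrp3 (SE 0.13, adjusted p = 0.335) and -0.53 for Casp1 (SE 0.15, adjusted p = 0.259). In AMSC against NC it was 0.03 for Nlrp3 (95% confidence interval -0.10 to 0.17, adjusted p = 0.765) and -0.02 for Casp1 (-0.56 to 0.53, adjusted p = 1).

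**Figure D2:**
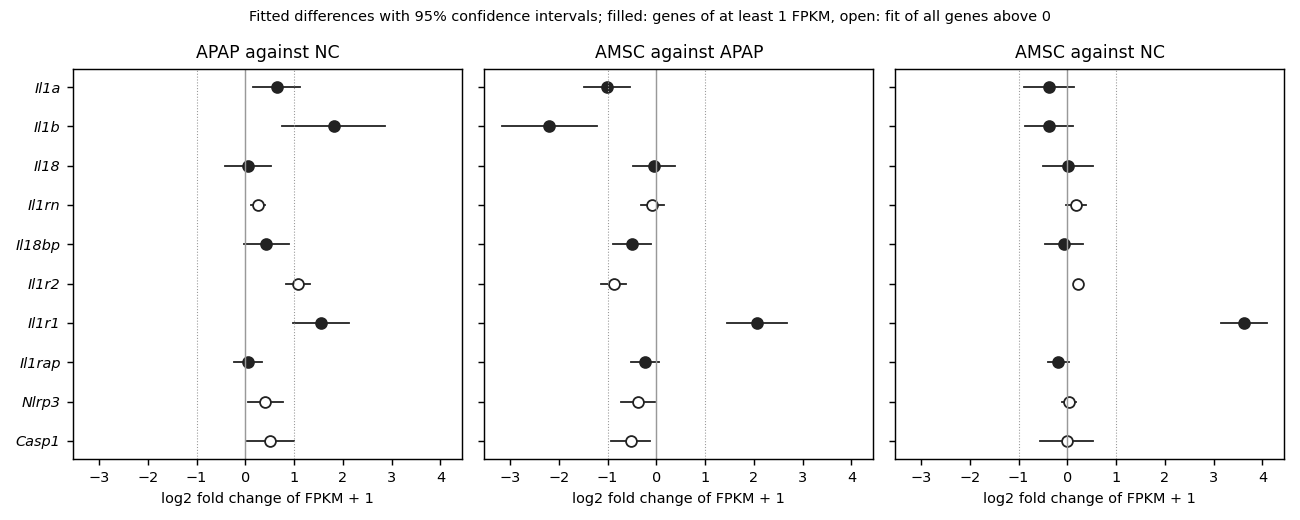
Log2 fold change of FPKM + 1 for the 10 genes in the 3 comparisons (points) with 95% confidence intervals (lines); filled points come from the fit of genes that average 1 FPKM or more and open points from the fit of all genes above 0, and dotted lines mark log2 fold changes of 1 and -1. Il1r1 lies to the right in every panel (1.56, 2.06 and 3.62), and Il1b lies at 1.81 in APAP against NC and at -2.19 in AMSC against APAP.

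Counted over the system, 2 of the 6 genes tested were DEGs with higher values in APAP than in NC (Il1b and Il1r1), beside 5.09% of all genes tested, and 0 were lower, beside 2.8%. In limma 3 were higher and 0 lower at an unadjusted p under 0.05, and voom called the same genes, Il1b and Il1r1. Between AMSC and APAP 1 was higher (Il1r1), beside 0.742% of all genes, and 2 were lower (Il1a and Il1b), beside 1.22%. In AMSC against NC 1 was higher (Il1r1), beside 3.92%, and 0 were lower, beside 2.09%, with 0 lower at an unadjusted p under 0.05 in limma and 0 called lower by voom. As the genes were chosen with these comparisons in view, nothing is read from these counts.

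With all 24849 genes above 0 in the limma fit, 2 of the 10 genes were DEGs in APAP against NC (Il1r1 and Il1r2), beside 2.38% of genes in either direction, though with the replicate number as a block both were lost (adjusted p = 0.106 and 0.0716), and 1 in AMSC against NC (Il1r1), beside 1.94%. Between AMSC and APAP 0 of 10 were DEGs there, beside 0.0845%, although 7 had an unadjusted p under 0.05 (1 higher and 6 lower) and voom called Il1r1 and Il1r2. The comparisons share libraries pairwise, so their values for a gene are not independent of each other.

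The order of the 10 genes, compared per length in FPKM, changed between groups. In NC, Il1rap led with 14.2, followed by Il18 (5.82), Il1r1 (3.37), Il18bp (2.53), Il1a (0.969), Casp1 (0.717), Il1b (0.552), Il1rn (0.180) and Nlrp3 (0.139), with Il1r2 at 0. Here the ranges of Il1r1 and Il18bp overlapped, as did those of Il1a, Casp1 and Il1b and those of Il1rn and Nlrp3. The range of Il1b also overlapped those of Il1rn and Nlrp3. In APAP, Il1rap (14.8) and Il1r1 (12.1) overlapped at the top, and Il1b (5.02) reached the range of Il18 (6.01). In AMSC, Il1r1 stood first at 53.0, above Il1rap (12.4) in every library, while Il1b (0.160) and Il1r2 (0.156) stood last and overlapped with Nlrp3 (0.163). Both also overlapped with Il1a there, and Il1b with Il1rn.

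Ratios within a library set the agonists against their brakes. The FPKM of Il1rn divided by the sum of Il1a and Il1b was 0.124, 0.240 and 0.0808 in NC, 0.0378, 0.154 and 0.0459 in APAP and 0.187, 0.864 and 0.946 in AMSC. All AMSC libraries were above all APAP libraries, and AMSC replicate 2 lay within the range of NC. The FPKM of Il18bp divided by that of Il18 was 0.372, 0.493 and 0.448 in NC, 0.894, 0.443 and 0.584 in APAP and 0.369, 0.514 and 0.352 in AMSC, and the groups overlapped. The FPKM of the signalling receptor Il1r1 divided by that of the decoy Il1r2 was 7.79, 19.4 and 7.60 in APAP and 341, 427 and 259 in AMSC, and could not be formed in NC. These ratios were not tested, as they are built from the genes above, and the AMSC values rest on the few reads of Il1a, Il1b and Il1r2.

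**Figure D3:**
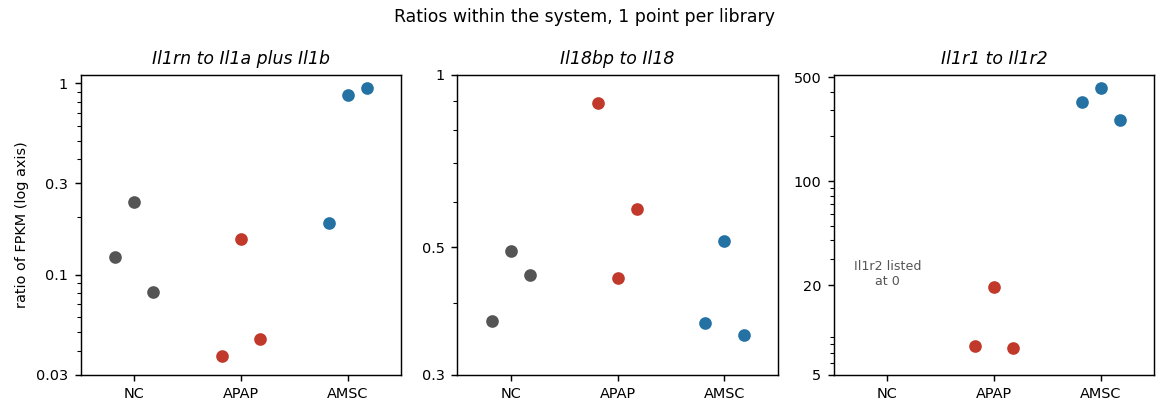
Ratios of FPKM within each library (points) on log axes, for Il1rn over Il1a plus Il1b, Il18bp over Il18 and Il1r1 over Il1r2. In the AMSC group Il1r1 over Il1r2 lies between 259 and 427, against 7.60 to 19.4 in the APAP group, and Il18bp over Il18 overlaps between all groups.

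Markers of Kupffer cells and macrophages, the cells known as the main source of the ligands, moved in the same direction as Il1a and Il1b. The summed FPKM of 12 markers was 112, 111 and 210 in NC, 298, 166 and 414 in APAP and 163, 103 and 99.3 in AMSC. All AMSC libraries were below all APAP libraries, and NC and APAP overlapped. Of the 11 markers tested, Cd68 and Timd4 were DEGs with higher values in APAP than in NC, beside 5.09% of all genes tested. At an unadjusted p under 0.05 in limma 7 were higher there. Cd68 was a DEG with lower values in AMSC than in APAP, beside 1.22%. In that comparison 10 of the 11 were lower at an unadjusted p under 0.05 in limma, and voom called Cd68 and Csf1r lower. The median log2 fold change of the 11 was -1.18 there, beside 0.01 over all genes tested. None of the 12 was at 0 in all libraries.

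Set against 100 FPKM of these markers, a scaling chosen after seeing the data, Il1b was 0.163 to 0.522 in NC, 0.890 to 1.92 in APAP and 0.0390 to 0.176 in AMSC. The APAP libraries remained above both other groups, with means 4.61-fold above NC and 12.5-fold above AMSC, in place of the 9.10-fold and 31.5-fold of the unscaled means. Il1a on this scale was 0.499 to 0.758 in NC, 0.483 to 0.934 in APAP and 0.170 to 0.548 in AMSC, and all 3 groups overlapped. The APAP mean on this scale was 1.89-fold that of AMSC. Casp1 overlapped as well, with means of 0.478 in NC, 0.582 in APAP and 0.551 in AMSC. Il1r2 was 0.330 to 0.534 in APAP and 0.0810 to 0.176 in AMSC. Il1r1 was 1.17 to 3.67 in NC, 2.51 to 10.4 in APAP and 27.7 to 66.5 in AMSC, so NC and APAP overlapped and AMSC was apart. Unscaled Il1r1 was already above APAP in every AMSC library, and the AMSC marker sums were all lower. On this scale AMSC could thus only stay above APAP, and nothing is read from that. No scaled value was tested, and the part of cell number in any of them was not tested.

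**Figure D4:**
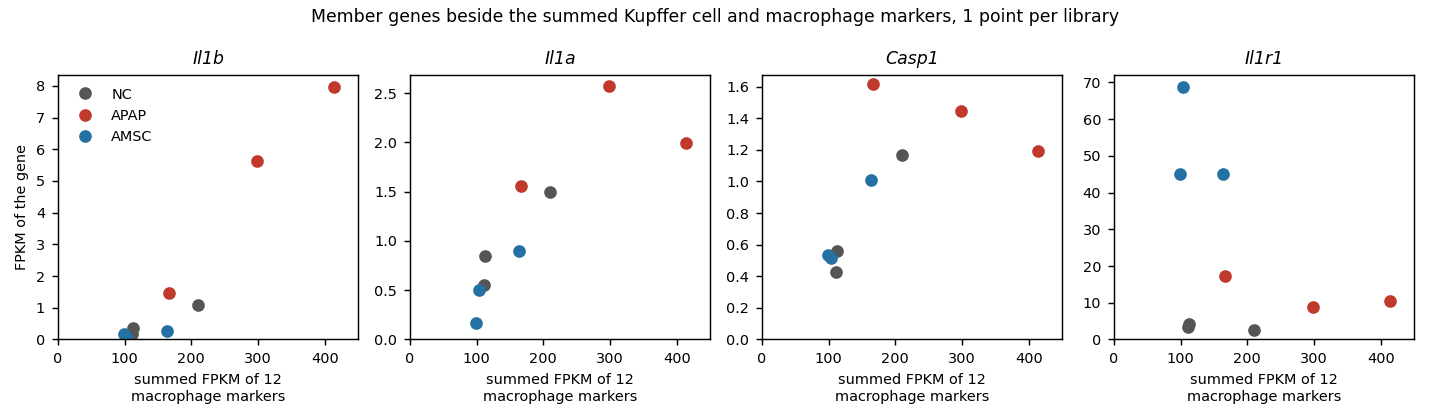
FPKM of Il1b, Il1a, Casp1 and Il1r1 (vertical axes) against the summed FPKM of 12 Kupffer cell and macrophage markers (horizontal axes), with a point per library coloured by group. The APAP libraries have marker sums of 166 to 414 and the AMSC libraries of 99.3 to 163, and Il1r1 is highest in the AMSC libraries, where the marker sum is low.

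Other marker lists also moved. Endothelial markers summed over 7 genes to 19.0 to 39.7 FPKM in NC, 24.1 to 60.6 in APAP and 21.8 to 22.7 in AMSC, with 0 DEGs in limma in any comparison, although 3 were higher in APAP against NC and 4 lower in AMSC against APAP at an unadjusted p under 0.05, and voom called Lyve1 and Pecam1 higher in APAP against NC and Cdh5 lower in AMSC against APAP. Monocyte markers summed over 6 genes to 1.89 to 3.91 FPKM in NC, 4.86 to 9.38 in APAP and 3.48 to 5.58 in AMSC, and the NC and APAP libraries did not overlap. Of the 6, Plac8 was tested and was a DEG in APAP against NC (log2 fold change 1.32, adjusted p = 0.0101). Among the 9 hepatocyte markers, Cyp2e1, the enzyme that makes the toxic metabolite of APAP, was a DEG with lower values in APAP than in NC (log2 fold change -2.31, adjusted p = 0.0147) and with higher values in AMSC than in APAP (2.40, adjusted p = 0.0474). Tat (1.56, adjusted p = 0.00352) and Hnf4a (1.06, adjusted p = 0.00745) were DEGs with higher values in AMSC than in NC.

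The genes most alike to each member, by the root mean square difference over the 9 libraries of log2(FPKM + 1) taken relative to the NC mean, were a description of pattern only. For Il1a they were Cybb (0.177), Mup21 (0.177) and Cd163 (0.191), of which Cybb and Cd163 are genes of phagocytes. For Il1b they were Apold1 (0.417), the macrophage marker Adgre1 (0.450) and Tmsb4x (0.476). For Il1r1 they were Dnajb1 (0.384), which encodes a co-chaperone of the heat shock response, Psat1 (0.646), an enzyme of serine synthesis, and Acot2 (0.664), a mitochondrial acyl-CoA thioesterase. Relative to NC, Dnajb1 was 2.09 higher in APAP and 3.54 higher in AMSC on the log2 scale. For Il18bp they were Smpdl3a (0.0800), Ndufab1-ps (0.111) and B2m (0.119). The flat members Il18 (Tmem208, 0.106, Mrpl13, 0.120, and Dap3, 0.121) and Il1rap (Sh3bgrl, 0.0684, Tarsl2, 0.0696, and Cyb5r3, 0.0742) had flat neighbours. All of them share the same 9 libraries and their depth.

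Other genes of the pathway were counted from 5 lists, to be read beside the share of all genes tested that were DEGs (higher and lower, 5.09% and 2.8% in APAP against NC, 0.742% and 1.22% in AMSC against APAP, 3.92% and 2.09% in AMSC against NC). Of 17 other ligands and receptors of the family, 13 had a row under the symbols used and 5 of these were at 0 in all libraries. The only gene tested among them was Sigirr, a receptor that dampens IL-1 signalling, which was no DEG in any comparison by limma or voom (log2 fold change -0.28 in APAP against NC, adjusted p = 0.108, and -0.40 in AMSC against NC, adjusted p = 0.0318). Its unadjusted p was under 0.05 in these comparisons in limma.

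Of 20 adaptors and kinases of the receptor, 18 were tested. In APAP against NC 1 of the 18 was a DEG, near the 5.09% of all genes, namely Map3k8, a kinase upstream of ERK (log2 fold change 1.51, SE 0.20, adjusted p = 0.00219). Between AMSC and APAP it was Ikbkg, the regulatory subunit of the IkB kinase (1.06, SE 0.23, adjusted p = 0.0492). In AMSC against NC 2 were, Ikbkg (1.29, adjusted p = 0.00292) and Tab2 (1.02, adjusted p = 0.000319), the latter an adaptor of the kinase TAK1. All were higher, and 0 of the 18 were lower DEGs in any comparison by limma or voom, with 1 lower in APAP against NC, 1 in AMSC against APAP and 0 in AMSC against NC at an unadjusted p under 0.05 in limma. The median log2 fold change of the 18 was 0.18 in APAP against NC, beside -0.00 over all genes tested, and 0.25 in AMSC against NC, beside 0.02. Myd88, the first adaptor of the receptor, chosen after its values were seen, had log2 fold changes of 0.22 in APAP against NC (adjusted p = 0.239), 0.28 in AMSC against APAP (adjusted p = 0.267) and 0.51 in AMSC against NC (adjusted p = 0.0231), all short of the minimum size.

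Of 21 other sensors, adaptors and regulators of inflammasomes, 6 were tested. Txnip, a thioredoxin inhibitor that binds NLRP3, was a DEG in APAP against NC (log2 fold change 1.95, SE 0.30, adjusted p = 0.00366) and in AMSC against NC (1.91, SE 0.37, adjusted p = 0.00709). Nlrp12, a sensor that dampens NF-kB, was a DEG in AMSC against NC (1.31, SE 0.13, adjusted p = 0.000358). Between AMSC and APAP 0 of the 6 were DEGs in limma, with 1 higher and 1 lower at an unadjusted p under 0.05, and voom called Trim30a lower. Of 12 caspases and pyroptosis effectors, 5 were tested and 1 was a DEG, Serpinb1a, which inhibits neutrophil proteases and inflammatory caspases, in AMSC against NC (1.12, SE 0.12, adjusted p = 0.000599). Its log2 fold change in APAP against NC was 0.99 (adjusted p = 0.0232), just short of the minimum size, and voom called it there. Limma gave 0 DEGs of the 5 in APAP against NC and in AMSC against APAP, with 2 and 0 at an unadjusted p under 0.05. Gsdmd, which encodes the pore of pyroptosis and was also chosen after its values were seen, had log2 fold changes of 0.16, -0.25 and -0.10 (adjusted p = 0.546, 0.393 and 0.637).

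The list of NF-kB and post-transcriptional feedback held 14 genes, of which 11 were tested. In APAP against NC 3 of the 11 were DEGs, all higher, beside 5.09% higher and 2.8% lower among all genes, namely Zfp36, whose product destabilises cytokine mRNAs (log2 fold change 3.59, SE 0.27, adjusted p = 0.000185), Nfkbiz, a nuclear IkB protein (2.25, SE 0.22, adjusted p = 0.000593), and Nfkbia, which encodes IkB alpha (1.11, SE 0.13, adjusted p = 0.00142). The same 3 were DEGs in AMSC against NC, beside 3.92% higher among all genes, at 3.19, 2.62 and 1.23 (adjusted p = 2.35e-05, 2.47e-06 and 0.00423). Between AMSC and APAP, 0 of the 11 were DEGs by limma or voom, and 0 had an unadjusted p under 0.05 in limma. There the log2 fold change was -0.40 for Zfp36 (adjusted p = 0.529), 0.37 for Nfkbiz (adjusted p = 0.412) and 0.12 for Nfkbia (adjusted p = 0.800).

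**Figure D5:**
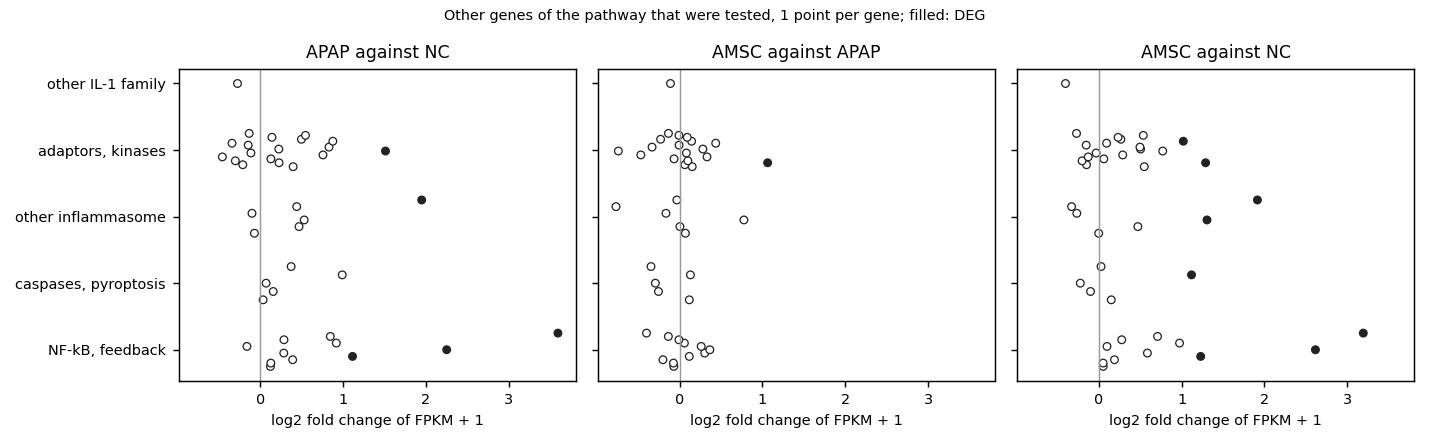
Log2 fold change of FPKM + 1 in the 3 comparisons for the other genes of the pathway that were tested, with a point per gene in 5 lists; filled points are DEGs. The DEGs all lie to the right of 0, with Zfp36 at 3.59 in APAP against NC and 3.19 in AMSC against NC, and Ikbkg (1.06) is the only DEG in AMSC against APAP.

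Some of the values are less certain because genes overlap and the counting is not stated to use strand. Il1a overlaps Gm14023, Il1b overlaps Il1bos, Il18 overlaps Bco2 and Tex12, Il18bp overlaps Numa1, Il1r2 overlaps Gm16894 and Il1rap overlaps Gm20319, each on the other strand. Il1r2 also overlaps Gm37347 and Il1r1 overlaps Gm38070 on the same strand. Il1rn, Nlrp3 and Casp1 overlap no other gene.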

How the data were processed

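RNA-seq of 9 liver libraries was analysed, and libraries were assigned to NC, APAP and AMSC groups from the sample labels. The authors deposited FPKM values per gene, with gene lengths and coordinates, and made their own comparisons with DESeq2, whose columns were not used. The library kit was stated without its strand, and the aligner and counter are not given in the sources used here. The submitters' processing notes name GRCm38 (mm10), and of the 54409 identifiers also in GENCODE vM21, 98.3% matched in start and end. FPKM times gene length gave whole reads (tolerance 0.1) for 100% of values. These reads were used for voom, with the depth totals of FPKM as library sizes. The libraries held 13418921 to 16210930 reads on genes, with a median of 312 reads per tested gene. Floors cover counting error only.

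Tests used limma 3.58.1 (lmFit, eBayes with trend) in R 4.3.3 on log2(FPKM + 1), two-sided, with Benjamini-Hochberg adjustment over the 9699 genes that averaged 1 FPKM or more, and each fit held the 2 groups compared. Genes under this mean were taken from the fit of all 24849 genes above 0. The steps were tested on simulated data. The fits were repeated with a pseudocount of 0.1, with all genes above 0, with quantile normalization, in 1 fit of all libraries, with voom, with the replicate number as a block, without a minimum fold change and without each replicate in turn. The study describes the 3 libraries of a group as biological replicates. The main fits were unpaired, and the replicate number entered only the repeated fits with a block. In APAP against NC, the deviations of libraries of the same number from their group means correlated weakly, at 0.213, 0.16 and 0.378. Whether these numbers pair the libraries is not stated. The number of NC replicate 3 comes from its description, while its title, with another date, numbers it 1.

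The 10 genes, the 5 pathway lists and the 7 marker lists were chosen with earlier results of these data known. All 10 genes are named, with up to 3 DEGs per list and comparison that have the largest change and separate groups, and the 3 most alike genes of each tested member. Figures were drawn with Python 3.11.15 and matplotlib 3.10.9.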

Additional observations from a re-analysis of the deposited data

How the results depend on the processing

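Of the 6 genes tested in the fit of genes averaging 1 FPKM or more, 1 was a DEG in AMSC against NC in that fit under each alternative run. With all genes above 0, it was 1 of the 10, but 2 by voom or with a pseudocount of 0.1 (Il1r1 and Il1r2) and 0 with the replicate number as a block (Il1r1 adjusted p = 0.511). In APAP against NC there were 2 (1 to 2 with a replicate left out). In AMSC against APAP there were 3, but 0 with all genes above 0 and 1 to 3 with a replicate left out; the cause was not tested. Over all genes tested, APAP against NC gave 766 DEGs (1197 by voom, 2514 by adjusted p alone, 683 to 872 with a replicate left out), AMSC against APAP 190 (21 with all genes above 0, 296 by voom, 367 by adjusted p alone, 90 to 229 with a replicate left out) and AMSC against NC 583 (915 with a pseudocount of 0.1, 968 by voom, 2521 by adjusted p alone, 555 to 627 with a replicate left out).

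With the replicate number as a block, AMSC against APAP gave 335 DEGs and Il1a an adjusted p of 0.165. These groups share only 2 numbers, whose deviations correlated at -0.104 and -0.293. So few libraries cannot settle whether the numbers pair them. The same holds for AMSC against NC, with correlations of -0.199 and -0.309. There the adjusted p of Il1r1 was 4.7e-07 with the block in the fit of genes averaging 1 FPKM or more. In APAP against NC the block changed no call of the 6 genes. With all genes above 0 it took the calls of Il1r1 (adjusted p = 0.106) and Il1r2 (0.0716).

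Genes near 0 changed sign. Il18 in AMSC against NC was -0.012 with quantile normalization, and Casp1 there was 0.024 by voom. With a replicate left out, Il18 ranged from -0.12 to 0.25 in APAP against NC, from -0.21 to 0.11 in AMSC against APAP and from -0.17 to 0.20 in AMSC against NC, Il1rap from -0.018 to 0.14 in APAP against NC, and in AMSC against NC Il18bp from -0.16 to 0.11, Nlrp3 from -0.020 to 0.07 and Casp1 from -0.15 to 0.16 (0.056 without AMSC replicate 3 and 0.047 without AMSC replicate 4). The values of Il1rn, Il1r2, Nlrp3 and Casp1 rest on at most 38 reads per library.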

Other observations

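Within groups, the 10 genes did not vary in the same way. APAP replicate 2 had the lowest Il1a (1.55 FPKM), Il1b (1.48), Il18bp (2.77), Il1r2 (0.888) and Nlrp3 (0.239) of its group, together with the lowest sums of macrophage (166) and neutrophil markers (7.89), and the highest Il1r1 (17.2), Il1rn (0.466) and Casp1 (1.62). NC replicate 3, the library with another date in its title, had the highest Il1a (1.501), Il1b (1.10), Il18 (7.66), Il18bp (3.44) and Casp1 (1.16) of its group, the highest macrophage marker sum (210) and the lowest Il1r1 (2.47). These values were noticed after the data were seen and were not tested.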
